A study of Ambystoma mexicanum with 6 samples.

Results

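The Hippo pathway is a kinase cascade that restrains organ growth and reads cell contact and tension. Its kinases phosphorylate the coactivators YAP1 and TAZ (gene WWTR1), which are then held in the cytoplasm or degraded. Unphosphorylated YAP1 and TAZ enter the nucleus and switch on target genes through the TEAD transcription factors. The matricellular genes CCN1 (CYR61) and CCN2 (CTGF) are their most used readouts. In mouse skin wounds, CCN1 drives fibroblasts into senescence. Much of the pathway's activity is set by phosphorylation and by where the proteins are, which messenger RNA counts do not measure.

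The genes described are the core of this pathway in AL1 cells, wild-type fibroblasts kept as a line. They come from the axolotl (Ambystoma mexicanum), which regrows its limbs. The genes were chosen by symbol, from 8 names: the kinases STK3, LATS1 and LATS2, the coactivators YAP1 and WWTR1, the transcription factor TEAD1, and CCN1 and CCN2. Of these, 7 had a row among 99126 gene models. No row carried the symbol TEAD1, and TEAD1 was not analysed here. All 7 had enough reads to be among the 17424 models tested.

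Poly(A) RNA was sequenced from 3 libraries of cells exposed for 24 h to 10 µM etoposide with 1 µM nutlin-3a, and then for 11 days to 1 µM nutlin-3a, a regimen used to induce senescence. Etoposide is a topoisomerase poison that breaks DNA, and nutlin-3a keeps MDM2 from p53. These cells are called treated. The other 3 libraries came from cells that received DMSO alone, the solvent, and were passaged over the 12 days to keep dividing. All were harvested at day 14. The drugs, the arrest and the lack of passage cannot be told apart in this design. Nor can fewer cells expressing a gene be told from less RNA per cell. The labels name no separate cultures for the libraries of a group, so p-values measure the spread between libraries, which may be technical.

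Library totals ran from 28604727 to 46686876 counts, and 3 counts in a library, the limit that a count of 0 allows, equalled 0.0671 to 0.116 CPM, the library-scaled count. CPM were scaled with TMM factors (a trimmed mean of log ratios), which set the typical gene to no change. That choice matters here: with library totals alone, log2 changes shifted by a median of −0.37. DMSO replicate 1 carried the largest mitochondrial share, 12.1% of its counts, against 7.86 to 9.15% in the other libraries. Of 15 fibroblast markers, 14 were in the table and 9 were tested. Of these, 3 fell, the matrix genes COL1A1, COL1A2 and FN1. That is 33.3%, near the 26.8% of all tested models that were lower. The summed level of the list was 7245 to 7498 CPM in DMSO and 7699 to 9420 CPM in treated libraries, most of it VIM. PRRX1, a mesenchymal transcription factor, was below 1 CPM in both groups, and DCN and THY1 were near 0. Defining markers of other types had 0 counts in every library: PTPRC and SPI1 of leukocytes, CDH5 of endothelium, EPCAM of epithelium, MYH3 of muscle and MATN1 of cartilage. Summed levels of the other lists stayed below 6 CPM. The exception was the epidermal list, at 1294 to 1417 CPM in DMSO and 933 to 1147 CPM after treatment, nearly all of it the simple-epithelial keratin gene KRT18, which fell. KRT5, a keratin of basal epidermis and the other tested gene of that list, rose 3.67-fold from 0.901 ± 0.338 to 3.34 ± 0.785 CPM (edgeR adjusted p = 0.000141), with no overlap. The leukocyte sum was at most 0.120 CPM in DMSO and at least 0.696 CPM in treated libraries, there nearly all CD3E. The endothelial sum was at most 0.503 and at least 1.09 CPM. Whether these markers bear on the results was not tested.

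CCN1 and CCN2 parted company in the treated cells, and of the kinases and coactivators above them LATS1 alone passed the test. CCN1 fell 2.59-fold and CCN2 rose 1.52-fold. LATS1 fell 1.76-fold, and STK3, LATS2, YAP1 and WWTR1 did not pass the test. Fold changes are given on the log2 scale, treated over DMSO, as log2 changes. By edgeR's quasi-likelihood test with Benjamini-Hochberg adjustment, 1 of the 7 genes was higher and 2 were lower at an adjusted p below 0.05. Of all models tested, 25.5% were higher and 26.8% lower, 52.3% in all, so 3 called of 7 (42.9%) is not above the background. The groups did not overlap for the same 3 genes, 1 higher and 2 lower, against 60.2% of all models, 28.8% higher and 31.4% lower.

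**Figure D1:**
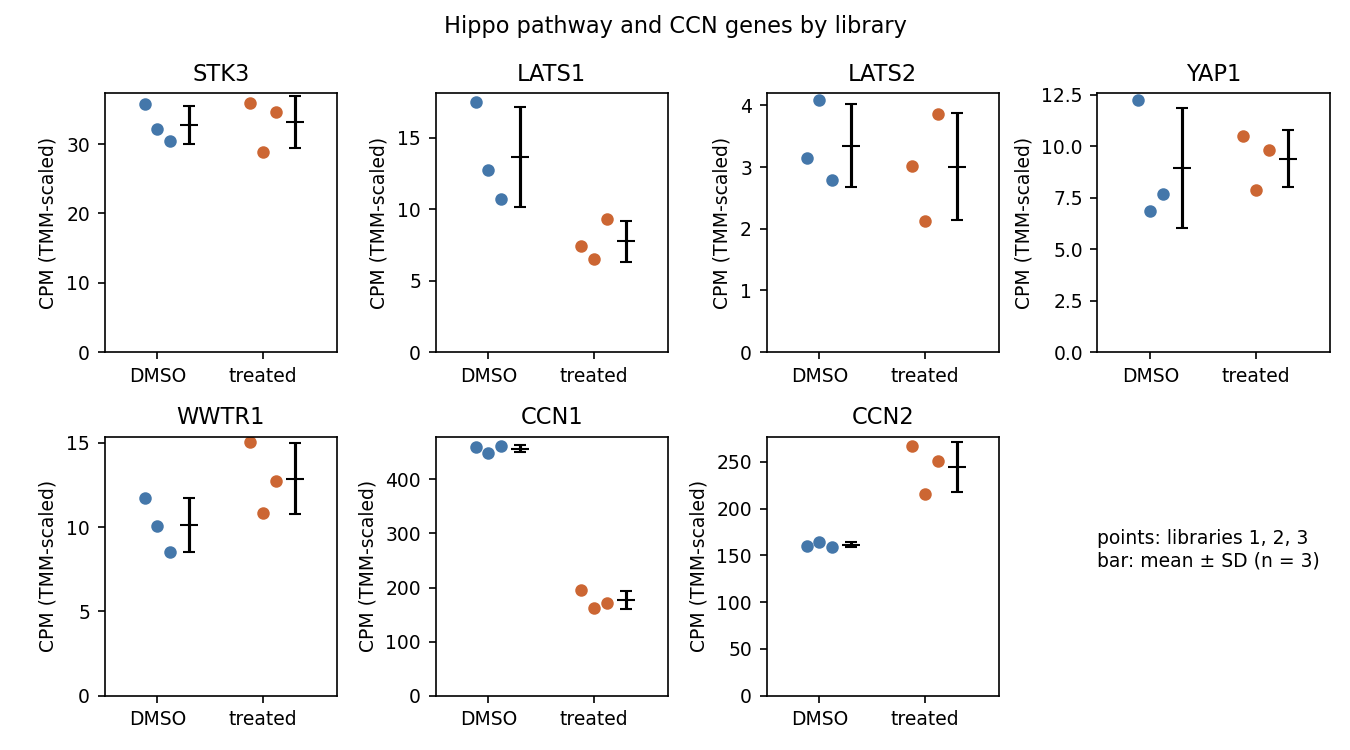
Expression of the 7 genes in each library, in TMM-scaled CPM on axes that start at 0. Points are the 3 DMSO (blue) and 3 treated (orange) libraries, and bars give mean ± SD. The groups are apart for LATS1, CCN1 and CCN2 and overlap for STK3, LATS2, YAP1 and WWTR1.

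STK3 encodes the mammalian MST2 kinase, which stands at the top of the cascade and phosphorylates the LATS kinases. Its model on chromosome 5q (861768046 to 863674756, minus strand, AmexG_v6_DD assembly) spans 1907 kb. STK3 measured 35.8, 32.3 and 30.4 CPM in DMSO and 36.0, 28.9 and 34.6 CPM in treated libraries. The groups overlapped throughout. The log2 change was 0.02 (SE 0.12, edgeR adjusted p = 0.922), with a 95% interval from −0.25 to 0.28.

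LATS1 and LATS2 encode the kinases that phosphorylate YAP1 and TAZ directly. LATS1, on chromosome 4q (173226949 to 173957665, minus strand), measured 17.5, 12.7 and 10.7 CPM in DMSO libraries. It measured 7.43, 6.52 and 9.28 CPM in treated libraries, all below the lowest DMSO library. LATS1 fell from 13.7 ± 3.49 to 7.74 ± 1.41 CPM (SD, n = 3 per group), a log2 change of −0.82 (SE 0.19, edgeR adjusted p = 0.00308). The highest value was DMSO replicate 1, and without that library the log2 change was −0.60 (edgeR adjusted p = 0.0234). LATS2 is itself a target of YAP1 and TAZ in mammals and feeds back on them. It lies on chromosome 7q (683180983 to 683460596, minus strand), the arm that also carries YAP1. LATS2 had 3.15, 4.09 and 2.79 CPM in DMSO and 3.02, 2.13 and 3.87 CPM in treated libraries, and the groups overlapped. Its log2 change was −0.14 (95% interval −0.65 to 0.38, edgeR adjusted p = 0.651), an interval that runs from 0.636 to 1.30 as a ratio of treated to DMSO.

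YAP1 lies on chromosome 7q (776735609 to 777300189, minus strand) and WWTR1 on 10p (942954401 to 943244255, plus strand). YAP1 measured 12.3, 6.87 and 7.71 CPM in DMSO and 10.5, 7.87 and 9.82 CPM in treated libraries. DMSO replicate 1 was above all others and DMSO replicate 2 below all, so the treated libraries sat inside the DMSO range. The log2 change of YAP1 was 0.07 (SE 0.21, 95% interval −0.37 to 0.52, edgeR adjusted p = 0.788). Without DMSO replicate 1, the library with the largest mitochondrial share, it was 0.37 (edgeR adjusted p = 0.124). WWTR1 measured 11.8, 10.0 and 8.53 CPM in DMSO and 15.0, 10.9 and 12.8 CPM in treated libraries. Treated replicate 2 lay within the DMSO range and the other treated libraries above it. The log2 change was 0.35 (SE 0.17, 95% interval −0.01 to 0.71, edgeR adjusted p = 0.0905). WWTR1 passed the test without treated replicate 2 (0.46, edgeR adjusted p = 0.0265), with upper-quartile scaling (0.44) and with the trend on gene length removed (0.52), while library totals alone put it at −0.01.

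CCN1 encodes a secreted cysteine-rich matricellular protein that binds integrins. Its counted model, listed as CYR61, is a compact gene on chromosome 1q (976997166 to 977002450, minus strand). CCN1 measured 459, 450 and 462 CPM in DMSO and 195, 163 and 172 CPM in treated libraries. The highest treated library stood below the lowest DMSO library by a wide margin, and the DMSO libraries were nearly equal. CCN1 fell from 457 ± 6.37 to 177 ± 16.9 CPM, a log2 change of −1.37 (SE 0.12, edgeR adjusted p = 8.44e-07). Over 17 other settings, which included each scaling and each library left out, it ran from −1.73 to −1.28 and passed in all of them.

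CCN2, known as connective tissue growth factor, is a fibrosis-associated relative of CCN1. Its model, listed as CTGF, lies on chromosome 4p (1011902712 to 1011907878, plus strand). CCN2 measured 160, 164 and 159 CPM in DMSO and 267, 215 and 251 CPM in treated libraries. All treated libraries were above all DMSO libraries, and treated replicate 2 was the lowest of them. The log2 change was 0.60 (SE 0.12, edgeR adjusted p = 0.000829). With library totals alone it was 0.24 (edgeR adjusted p = 0.183), so the size of the CCN2 rise depends on how the libraries are scaled. The other 16 settings kept the call, between 0.54 and 0.69.

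Ratios within a library do not depend on scaling. Reads of CCN1 outnumbered those of CCN2 by 2.87, 2.74 and 2.90 to 1 in DMSO libraries. In treated libraries the ratio was 0.732, 0.756 and 0.683, so CCN2 had become the more abundant of the pair in reads. The ratio fell 3.92-fold (2.83 ± 0.0847 against 0.723 ± 0.0372, SD, n = 3 per group), with no overlap. An exact two-sided permutation test gave p = 0.1 (adjusted over 3 ratios, 0.15), the smallest that 3 against 3 libraries allows. The LATS2 to LATS1 ratio was 0.180, 0.322 and 0.260 in DMSO and 0.407, 0.327 and 0.417 in treated libraries, higher in every treated library but with a narrow gap (exact permutation p = 0.1, adjusted 0.15). The YAP1 to WWTR1 ratio was 1.04, 0.685 and 0.903 in DMSO and 0.700, 0.725 and 0.770 in treated libraries, and these overlapped (exact permutation p = 0.4, adjusted 0.4).

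**Figure D2:**
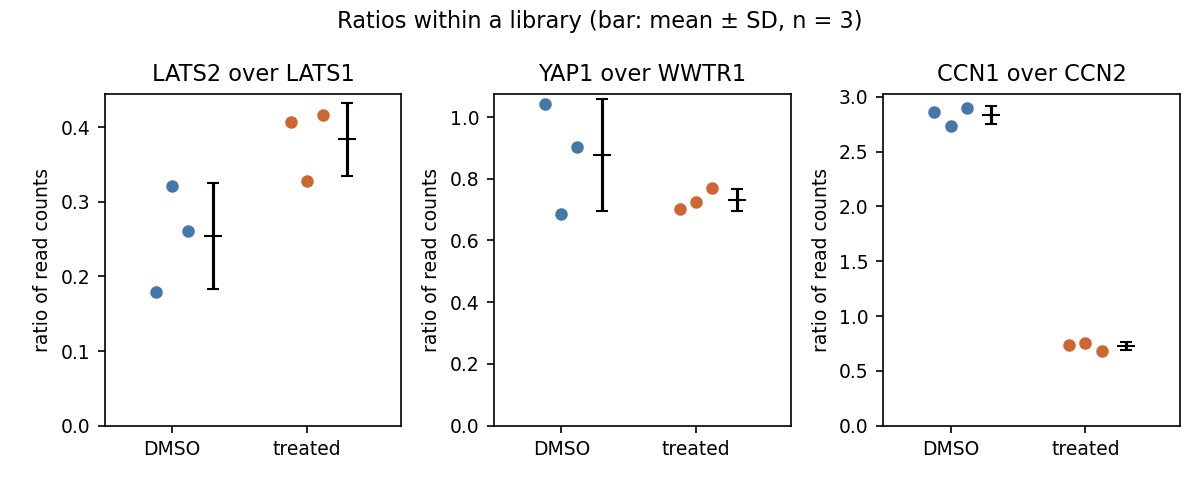
Ratio of read counts of a gene pair within each library, for LATS2 over LATS1, YAP1 over WWTR1 and CCN1 over CCN2, on axes that start at 0. Points are libraries (blue DMSO, orange treated) and bars give mean ± SD. CCN1 over CCN2 goes from 2.83 to 0.723, while YAP1 over WWTR1 overlaps between groups.

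Levels of different genes can be set side by side per kilobase of gene model. In DMSO cells CCN1 led with 145 ± 2.02 CPM per kb, before CCN2 with 64.1 ± 1.04. STK3 followed with 6.35 ± 0.531, LATS1 with 2.59 ± 0.663, YAP1 with 1.84 ± 0.597, WWTR1 with 1.41 ± 0.224 and LATS2 with 0.439 ± 0.0885 CPM per kb (SD, n = 3). The ranges of LATS1 and YAP1 overlapped, as did those of YAP1 and WWTR1, and no other neighbours in this order did. In treated cells CCN2 was first with 97.2 ± 10.5 and CCN1 second with 55.9 ± 5.34 CPM per kb, again without overlap. STK3 came next with 6.42 ± 0.726. YAP1 (1.94 ± 0.283), WWTR1 (1.79 ± 0.290) and LATS1 (1.47 ± 0.267 CPM per kb) had ranges that overlapped from each to the next, and LATS2 was last with 0.395 ± 0.114. Transcripts of both coactivators were thus scarce beside those of the 2 CCN genes in either group.

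CCN1 and CCN2 belong to a family of 6, whose other members were given the same look. CCN5, which lacks the C-terminal domain of its relatives, rose the most, 4.76-fold. It measured 6.09, 5.68 and 5.74 CPM in DMSO and 28.1, 27.7 and 27.6 CPM in treated libraries, groups that were far apart and each nearly uniform (log2 change 2.25, SE 0.13, edgeR adjusted p = 1.92e-08). CCN3, listed under its older symbol NOV, fell from 18.2 ± 1.75 to 11.8 ± 1.68 CPM (log2 change −0.62, edgeR adjusted p = 0.00278). The description beside that symbol names an unrelated ATPase family, so the identity of the CCN3 row rests on its symbol. CCN4, listed as CCN4.L, measured 219 ± 15.2 and 264 ± 12.8 CPM (log2 change 0.27, edgeR adjusted p = 0.0643). CCN4 passed in 5 of 17 other settings, among them RLE scaling (0.30) and upper-quartile scaling (0.36), and was −0.09 with library totals alone. CCN6 had 5 counts in treated replicate 3 and 0 in every other library. In all, 2 of 5 tested CCN genes rose and 2 fell, 40% each way against 25.5% and 26.8% of all models, and with library totals alone CCN5 was the only riser.

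More gene models are described as resembling CCN1 or CCN2, under placeholder symbols; they were looked up after values of the family had been seen. Close to each other on chromosome 13q lie 2 models described as CCN family member 1-like, both with the symbol LOC115466278. The one that starts at 444213714 rose from 4.19 ± 0.607 to 9.67 ± 2.04 CPM (log2 change 1.21, edgeR adjusted p = 0.000142). The one that starts at 444630622 rose from 2.54 ± 0.131 to 5.58 ± 1.00 CPM (1.14, edgeR adjusted p = 0.000264). Thus the models named after CCN1 rose on 13q where the abundant CYR61 model fell. A further CCN1-like model, LOC115464922 on an unplaced contig, had 20, 11 and 11 counts in DMSO and 0 in each treated library. A row with the symbol CCN1 lies within its span and had 0 counts in all 6 libraries. CCN2-like models with the symbol LOC115479748 fell, on 11q from 0.630 ± 0.137 to 0.181 ± 0.0649 CPM (edgeR adjusted p = 0.00457) and on an unplaced contig from 2.74 ± 0.562 to 1.00 ± 0.135 CPM (edgeR adjusted p = 0.000319), against the rise of CTGF. All these were minor beside the CYR61 and CTGF models. How reads that match several copies were counted is not given in the sources used here, so values of close copies are uncertain.

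**Figure D3:**
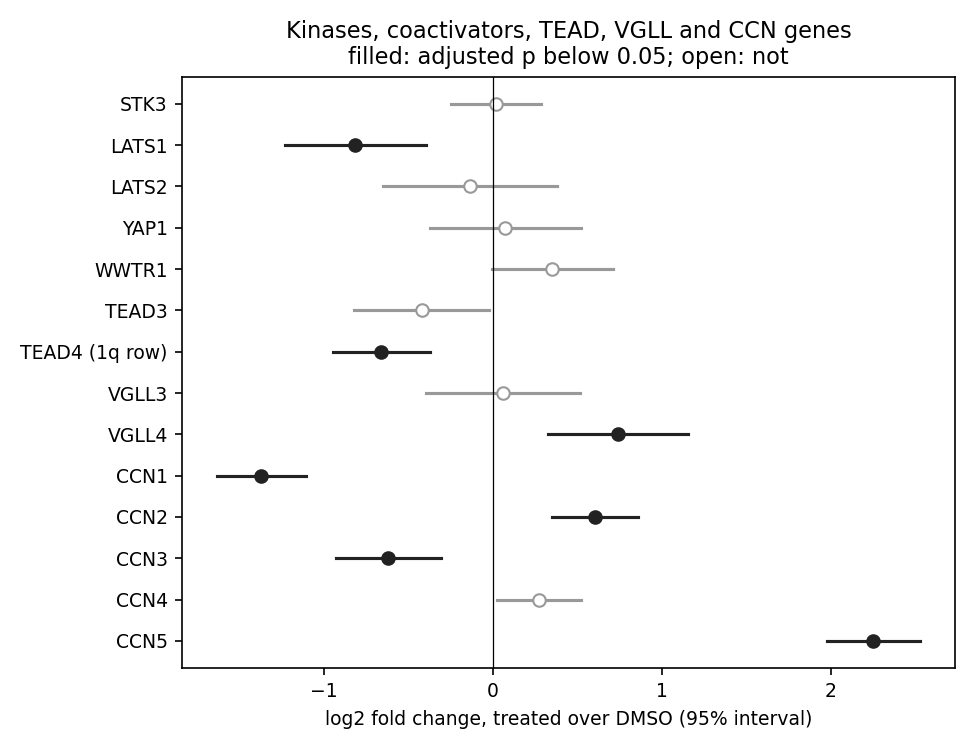
Log2 fold change, treated over DMSO, for the Hippo kinases, coactivators, TEAD, VGLL and CCN genes. Lines are 95% intervals from the fit, filled points passed at an adjusted p below 0.05 and open points did not. CCN1 (−1.37) and CCN5 (2.25) lie at the ends, and YAP1 and STK3 sit at 0.07 and 0.02.

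TEAD proteins bring YAP1 and TAZ to DNA, and VGLL proteins compete for the same partners. A row on chromosome 1q named TEAD4 fell from 27.0, 25.9 and 26.7 CPM to 19.2, 14.0 and 17.0 CPM, with no overlap (log2 change −0.66, SE 0.13, edgeR adjusted p = 0.00103). Its identity is open to doubt, since a row on 12q also bears the symbol and had only 3 counts, in treated replicate 3. RefSeq, on its assembly UKY_AmexF1_1, places TEAD4 on chromosome 12. It also places there TULP3 and CDKN1B, which lie near the 12q row here, while DEF6, also near that row, is on 13. Only chromosomes were compared, not positions. The 1q row instead lies near MYBPC2 and LENG8, which RefSeq also places on 1q. DKKL1 lies near it too, a symbol not found among protein-coding RefSeq genes. Other named rows near it, GMDS, NDC80 and CYTH1, are placed by RefSeq on 5p, 7p and 3q. RefSeq has TEAD1 on chromosome 11 and TEAD3 on 13, so the place of the 1q row matches none of the 3. TEAD2 was the symbol of no row here and of no protein-coding RefSeq gene, so its place could not be compared. Which TEAD gene the 1q row encodes, TEAD2 included, is not settled here. TEAD3 measured 3.59 ± 0.00784 CPM without and 2.67 ± 0.147 CPM with treatment (log2 change −0.42, edgeR adjusted p = 0.0690), and passed with library totals alone (−0.79). VGLL4, which in mammals blocks YAP1 from TEAD, had 11.8, 7.77 and 6.53 CPM in DMSO and 13.5, 15.6 and 14.6 CPM in treated libraries. VGLL4 rose 1.67-fold, or 0.74 on the log2 scale (SE 0.19, edgeR adjusted p = 0.00549), but did not pass with library totals alone (0.35, edgeR adjusted p = 0.205). VGLL3 measured 9.01 ± 1.51 and 9.32 ± 2.81 CPM (edgeR adjusted p = 0.836), and VGLL1 and VGLL2 were too low to test.

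The wider cascade held changes in both directions. Of 15 tested kinases and their partners, 2 were higher, 3 lower and 10 did not pass. So 33.3% were called against 52.3% of all models, with a median log2 change of −0.05 against −0.03 for all models. These 15 include STK3, LATS1 and LATS2, described above. Of the other 12, 2 were higher, 2 lower and 8 did not pass. SAV1, the scaffold that joins STK3 to LATS, fell from 44.3 ± 2.53 to 31.1 ± 3.64 CPM (log2 change −0.51, edgeR adjusted p = 0.00319). MOB1B, which activates LATS kinases, rose from 22.0 ± 2.66 to 29.3 ± 2.60 CPM (0.41, edgeR adjusted p = 0.0161), a call lost with library totals alone (0.04) and without DMSO replicate 2, DMSO replicate 3 or treated replicate 3. STK38L, a LATS-related kinase, stood at 5.38 ± 0.139 and 7.26 ± 1.24 CPM (edgeR adjusted p = 0.0489), and TAOK2, which phosphorylates STK3, at 4.83 ± 0.391 and 3.09 ± 1.07 CPM (edgeR adjusted p = 0.0393). Each was lost without DMSO replicate 1 or 2 or treated replicate 2 or 3. STK38L was also lost without DMSO replicate 3 and with library totals alone (0.04). With no low-count filter, with limma voom and with counts thinned to the smallest library its call was lost too. STK38L thus passed in 8 of 17 other settings. TAOK2 was also lost with upper-quartile scaling and with the trend on gene length removed. Without DMSO replicate 2, DMSO replicate 3 or treated replicate 3, the higher count of the list was 0. None of the 6 tested kinases of the MAP4K family, which act on LATS alongside STK3, passed, with log2 changes from −0.31 to 0.18.

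Membrane and junction scaffolds that sit above the kinases were mostly lower: 12 of the 19 that could be tested, while 1 was higher. Their median log2 change was −0.69. That share of lower members, 63.2%, compares with 26.8% of all models. Without DMSO replicate 3 the count of lower members was 7. The lower calls of AMOTL1, AJUBA, WTIP and NF2 were lost with the trend on gene length removed. Those of AJUBA and NF2 were also lost with upper-quartile scaling. The list was written with earlier results of these data known. LLGL2, a polarity protein, fell from 8.87 ± 0.305 to 3.68 ± 0.971 CPM (log2 change −1.26, edgeR adjusted p = 0.000116). FRMD6, the vertebrate counterpart of fly Expanded, fell from 4.85 ± 1.54 to 2.12 ± 0.226 CPM (−1.21, edgeR adjusted p = 0.000809), and FRMD1 fell from 1.51 ± 0.137 to 0.573 ± 0.241 CPM (−1.34). DLG1, a Scribble partner, was the exception that rose, from 1.40 ± 0.466 to 2.67 ± 0.412 CPM (0.91, edgeR adjusted p = 0.0101). The DLG1 call was lost with library totals alone (0.54), and without DMSO replicate 2, DMSO replicate 3 or treated replicate 3.

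Several of the scaffold genes that were lower came in families, grouped here after their values were seen, in a table where 26.8% of all models were lower. All 3 angiomotins, which tether YAP1 at junctions, were lower: AMOT by a log2 change of −0.88 (edgeR adjusted p = 0.00530), AMOTL1 by −1.08 (edgeR adjusted p = 0.0251) and AMOTL2 by −0.71 (edgeR adjusted p = 0.00182). The call of AMOTL1 was lost without DMSO replicate 1, DMSO replicate 3 or treated replicate 1 (−0.65), and with the trend on gene length removed (−0.90). The 3 LIM-domain adaptors that bind LATS kinases were lower as well, AJUBA from 23.0 ± 6.69 to 15.0 ± 4.51 CPM, LIMD1 from 3.78 ± 0.345 to 2.11 ± 0.907 CPM and WTIP from 0.610 ± 0.0169 to 0.255 ± 0.121 CPM. The groups overlapped for AJUBA, with treated replicate 1 (18.2 CPM) above DMSO replicate 3 (17.0 CPM). All 3 calls were lost without DMSO replicate 1, with edgeR adjusted p of 0.226, 0.0682 and 0.0879. That of AJUBA was also lost without DMSO replicate 2 or treated replicate 2 or 3, that of LIMD1 without DMSO replicate 3 or treated replicate 3, and that of WTIP without DMSO replicate 2 or 3 or treated replicate 2. With the trend on gene length removed, the calls of AJUBA and WTIP were lost. AJUBA was also lost with upper-quartile scaling, and WTIP with the DESeq2 test. NF2, the merlin tumour suppressor, had 21.8 ± 1.20 and 16.1 ± 3.61 CPM (log2 change −0.43, edgeR adjusted p = 0.0305). The NF2 call was lost without DMSO replicate 2 or 3 or treated replicate 2 or 3. It was also lost with upper-quartile scaling and with the trend on gene length removed. RASSF1, which binds STK3, fell from 42.9 ± 1.19 to 27.6 ± 0.627 CPM (−0.64, edgeR adjusted p = 0.000256) in all 17 other settings.

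Genes that act on phosphorylated YAP1 and TAZ moved in both directions. Of 9 tested genes of this list, 4 rose, 2 fell and 3 did not pass. The shares were 44.4% higher and 22.2% lower, against 25.5% and 26.8% of all models. The YWHA genes encode adaptors that bind phosphoserine and hold YAP1 in the cytoplasm. Of 6 tested, 4 rose and 1 fell, where 25.5% of all models were higher and 26.8% lower, and with library totals alone 3 of the 4 rises were lost. YWHAQ rose from 1362, 1375 and 1425 CPM to 2014, 2637 and 2120 CPM, with no overlap (log2 change 0.70, edgeR adjusted p = 0.00115). YWHAH fell from 185 ± 8.85 to 94.0 ± 9.29 CPM (−0.98, edgeR adjusted p = 1.25e-05). YWHAB (0.45) and YWHAZ (0.42) rose by less, and their calls were lost with library totals alone, at 0.08 and 0.05; that of YWHAZ was also lost without DMSO replicate 2. YWHAE (0.37, edgeR adjusted p = 0.0253) turned to −0.00653 under that scaling, and was lost without treated replicate 3 or any of the DMSO libraries. CSNK1D, a casein kinase that marks YAP1 for degradation, measured 29.1 ± 2.64 and 22.3 ± 3.34 CPM (edgeR adjusted p = 0.0285), a call lost without DMSO replicate 1 or 2 or treated replicate 2 or 3. In the STRIPAK phosphatase complex, which opposes STK3, 2 of 8 tested genes rose and 1 fell. The 37.5% called lay below the 52.3% of all models, and the share that rose, 25%, was near their 25.5%. PDCD10 rose from 66.9 ± 3.85 to 89.7 ± 10.6 CPM (0.42, edgeR adjusted p = 0.00853), PPP2R1A was at 11.1 ± 1.15 and 14.9 ± 0.876 CPM (edgeR adjusted p = 0.0191), and FGFR1OP2 at 15.7 ± 2.71 and 11.0 ± 2.45 CPM (edgeR adjusted p = 0.0274). With library totals alone the 2 rises were lost (0.04 and 0.05). The call of PPP2R1A was also lost with no low-count filter and without DMSO replicate 2 or 3 or treated replicate 3. That of FGFR1OP2 was lost without DMSO replicate 1 or 2 or treated replicate 2 or 3. The groups overlapped for FGFR1OP2. Both the CSNK1D and the FGFR1OP2 calls were also lost with upper-quartile scaling and with the trend on gene length removed.

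**Figure D4:**
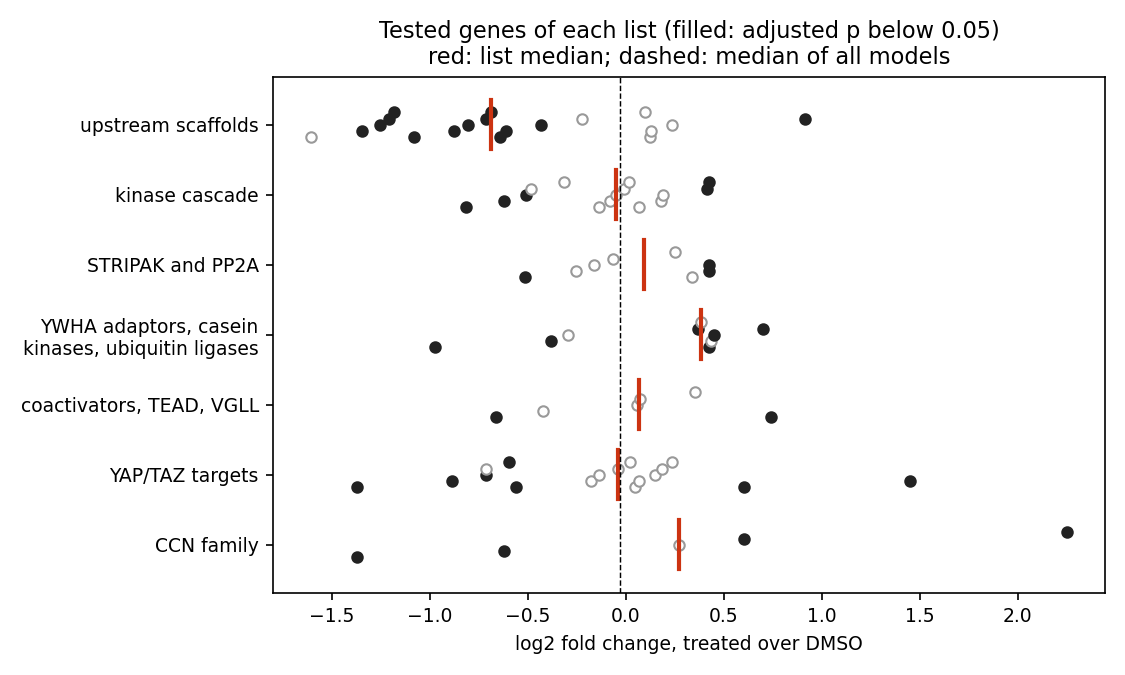
Log2 fold change, treated over DMSO, of every tested gene in 7 lists of the pathway, filled where the adjusted p was below 0.05. Red bars are list medians and the dashed line is the median of all models, −0.03. Upstream scaffolds lie mostly to the left, with a median of −0.69, and the other lists spread to both sides.

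Mammalian target genes of YAP1 and TAZ other than CCN1 and CCN2 also moved in both directions, with 1 rise. Of 17 tested targets, 2 rose, 5 fell and 10 did not pass, with a median log2 change of −0.04. The 7 called of 17 make 41.2%, below the 52.3% of all models. These 17 include CCN1, CCN2 and LATS2, described above. Of the other 14, 1 rose, 4 fell and 9 did not pass. ANKRD1, a stress-responsive ankyrin-repeat gene, rose with CCN2, from 7.02, 8.46 and 7.39 CPM to 24.1, 18.8 and 19.6 CPM, groups that were well apart (log2 change 1.45, SE 0.15, edgeR adjusted p = 3.35e-06). The DNA damage-inducible gene GADD45A fell with CCN1, from 9.60 ± 1.02 to 5.24 ± 1.27 CPM (−0.89, edgeR adjusted p = 0.00136). AMOTL2, a target and a scaffold at once, fell from 7.44 ± 0.342 to 4.53 ± 0.220 CPM. The remaining falls, named after their values were seen, were IGFBP3, an insulin-like growth factor carrier (−0.60), and TGFB2, a TGF-β ligand (−0.56). AXL, a receptor tyrosine kinase gene, and MYOF, a membrane repair gene, stood at 0.05 and 0.02 and did not pass. The calls of ANKRD1, GADD45A, AMOTL2, IGFBP3 and TGFB2 held in all 17 other settings.

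Likeness to each of the 7 genes was measured as the distance between log2 CPM profiles, centred over the 6 libraries, among 9272 named genes of at least 1 CPM. The profile nearest to CCN1 was that of CDC45, a replication helicase cofactor (distance 0.113 on the log2 scale), followed by the nucleolar chaperone gene NPM3 (0.132). Near to CCN2 was PTP4A1, a phosphatase gene (0.111). LATS1 lay nearest to MAP3K5, a stress-activated kinase (0.175), and to SKIL (0.231). WWTR1 lay nearest to LIMA1, an actin-binding protein (0.105), and to TMF1 (0.107). YAP1 was closest to VPS39 (0.166) and CLASP2 (0.183), STK3 to CUL3 (0.0853) and EIF4G2 (0.0908), and LATS2 to PGAP2 (0.268) and TMEM129 (0.287). Profiles over so few libraries, split by treatment, make close matches common, and they are given as a description.

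**Figure D5:**
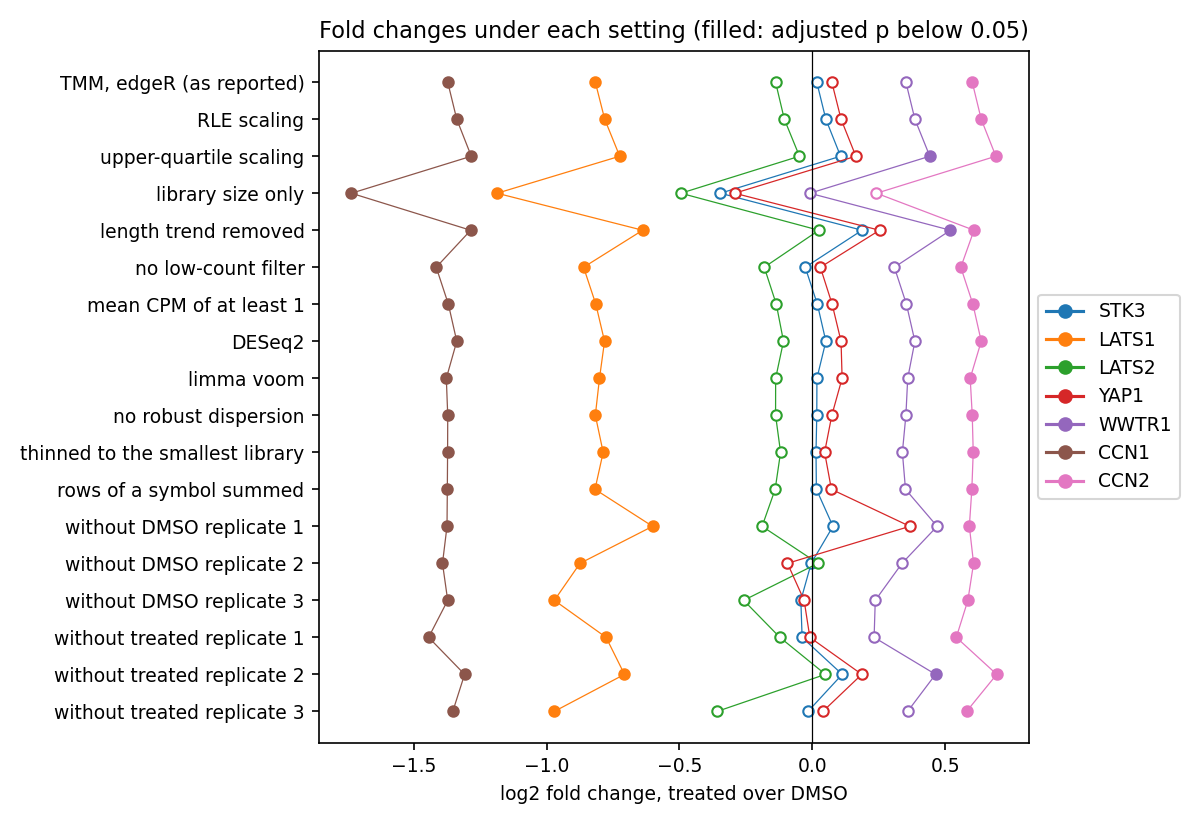
Log2 fold change of the 7 genes under the reported fit and 17 other settings, with filled points where the adjusted p was below 0.05. CCN1 stays between −1.73 and −1.28, CCN2 drops to 0.24 with library totals alone, and WWTR1 crosses the threshold in 3 settings.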

How the data were processed

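For 6 libraries of AL1 cells, raw integer counts were deposited in 1 table by gene model of the AmexG_v6_DD assembly (named in the table's title), without normalization. Per the labels' protocols, 1000 ng of RNA entered a modified Smart-seq2 procedure with poly(dT) priming and tagmentation, read in pairs of 100 bp. It carries no molecular identifiers and marks no strand; no other model shares exon bases with the 7 genes. Per the submitters' processing notes, the tools bcl2fastq 2.20.0, STAR 2.7.7a and featureCounts 2.0.1 were used, with no roles given. Columns were matched to samples by the description label. Rows of 92 spike-in RNAs (0 counts) were left out. No library was a copy of another: within groups the chi-square statistic per degree of freedom was 4.17 to 44.7, against counting error alone and with amplified reads taken as independent.

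Symbols were compared in upper case, without .L or .S, with older names, and the row with the highest mean count stood for a symbol. Tests used edgeR 4.0.16 under R 4.3.3 (filterByExpr, TMM, robust quasi-likelihood F-test, two-sided), and adjusted over 17424 models. SEs and 95% intervals derive from the F statistic and cover the spread between libraries only. Limits from a count of 0 cover counting error only. Alternatives used DESeq2 1.42.0, limma 3.58.1, other scalings, filters, thinning, summed rows, a length trend and each library left out. Members, lists and tests were chosen with earlier results of these data known. Named were all 7 genes, all tested TEAD, VGLL and CCN genes, up to 3 called genes in each direction per other list, and the 2 nearest profiles per gene, of which 1 is not reported here. Named outside that rule, after values were seen, were YWHAE, AMOT, AMOTL1, AJUBA, LIMD1, WTIP, NF2, RASSF1, IGFBP3, TGFB2, AXL, MYOF and the CCN-like models. No sequences are shown, as none was used here.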

Additional observations from a re-analysis of the deposited data

How the results depend on the processing

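No paired analysis was possible because the labels give the groups no shared replicate numbers. Over 1230 values under other settings, 1061 kept their direction and side of the threshold or moved little. CCN1 and LATS1 kept their calls in all 17. With library totals alone, 2314 models were higher and 7029 lower, no member was higher (CCN2 0.24), and YWHAE reversed to −0.00653; the higher counts were 1 for CCN genes, 0 for coactivators with TEAD and VGLL, 0 for kinases, 1 for the YWHA and degradation list, 0 for STRIPAK, 0 for scaffolds and 1 for targets, and the lower counts 2 for coactivators, 5 for kinases and 3 for STRIPAK. That shift follows from leaving out the composition factor; for other settings the cause was not tested. With upper-quartile scaling WWTR1 passed (0.44), so 2 members and 2 genes of the coactivator list were higher, with 1 lower YWHA-list and 0 lower STRIPAK genes. With the length trend removed (a median shift of 0.13 over all models) WWTR1 passed (0.52), again giving 2 and 2, with 1 lower YWHA-list gene and 4 higher and 0 lower STRIPAK genes. With no low-count filter 2 coactivator-list genes were lower, and 1 kinase-list and 1 STRIPAK gene higher. The kinase list had 1 higher gene with limma voom and 1 when thinned.

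Leaving out 1 library at a time gave 3706 to 4503 higher and 3884 to 4731 lower models, and 1 to 2 higher and 2 to 2 lower members. Log2 fold changes ran from −1.44 to −1.31 for CCN1, 0.54 to 0.69 for CCN2, −0.97 to −0.60 for LATS1, −0.36 to 0.05 for LATS2, −0.04 to 0.11 for STK3, 0.23 to 0.47 for WWTR1 and −0.09 to 0.37 for YAP1. The log2 ratio differences ran from −2.003 to −1.93 for CCN1 over CCN2, 0.40 to 0.82 for LATS2 over LATS1 and −0.41 to −0.11 for YAP1 over WWTR1. Higher and lower list counts ran over 2 to 3 and 2 to 2 (CCN), 1 to 2 and 1 to 1 (coactivators), 0 to 2 and 2 to 4 (kinases), 2 to 4 and 1 to 3 (YWHA list), 1 to 2 and 0 to 2 (STRIPAK), 0 to 1 and 7 to 12 (scaffolds), and 2 to 2 and 5 to 6 (targets). The 12q TEAD4 row, CCN6, VGLL1 and VGLL2 had too few counts to be tested. LATS2, at 55 to 150 counts a library, has a wide interval.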
